A study of Mus musculus with 3 samples.

Results

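Expression of the sialic acid-binding lectins *Siglec1*, *Siglece*, *Siglecf*, *Siglecg*, *Siglech*, *Cd22* and *Cd33* and of the related receptor gene *Sirpa* was read on 3 Affymetrix mouse arrays, 1 for each of BMDM, pTAMs and mTAMs. These 8 genes were taken with every probe set that the platform annotation gives to a single one of them, which came to 13 of 45037 probe sets and to 8 of 18193 genes. pTAMs were macrophages of the primary tumor and mTAMs those of the matched metastatic lung of the same orthotopic model, in which BALB/c mice 5 to 6 weeks old received syngeneic 4T1 mammary carcinoma cells in the fat pad, and both were taken 5 weeks after the inoculation. BMDM were grown in culture from the marrow of healthy mice, whose strain and age are not given in the sources used here, and carried no tumor. pTAMs and mTAMs were sorted for CD11b and F4/80, and no such sort is given for BMDM in the sources used here. No engineered allele or drug is given for any of them, and how many mice went into an array is not stated. With 1 array per group there is no spread between animals to set a difference against, and no test was possible.

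Siglecs are immunoglobulin-type receptors that bind sialic acid, the sugar that caps many glycans of a cell's own surface. Most members of the CD33-related branch carry inhibitory tyrosine motifs (ITIMs) in the tail, which recruit the phosphatases SHP-1 and SHP-2 and dampen activation. Some members have no such motif and pair with the activating adaptor DAP12, and sialoadhesin, encoded by *Siglec1*, acts mainly in adhesion. SIRPα is built along similar lines but binds the protein CD47, and this contact restrains phagocytosis by macrophages.

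Values are log2 signals made by RMA, which corrects background, equalizes the arrays and summarizes the probes of each probe set. A value of 5.56 or less was treated as background. This floor was the 95th percentile of 84 probe sets of olfactory, vomeronasal and taste receptor genes. A difference of 1 log2 unit or more, that is 2-fold, is a call, and where the lower of a pair of values does not exceed the floor its fold is a lower bound, computed against the floor. A list of macrophage markers was read, and all 9 genes read were above the floor on each array. *Lyz2* ranged from 13.90 to 14.29 and *Csf1r* from 12.89 to 13.35. Against BMDM, 4 were called higher and 1 lower in pTAMs, and 3 higher and 1 lower in mTAMs. None was called higher in mTAMs than in pTAMs and 2 were called lower. These were *Fcgr1* (12.03 in pTAMs and 10.58 in mTAMs) and *Aif1* (11.70 and 10.62). Of the sort markers, *Itgam* (CD11b) was 10.46 in BMDM, 11.90 in pTAMs and 11.61 in mTAMs, whereas *Adgre1* (F4/80) was 11.93, 10.00 and 10.06, lower in both TAM groups. Fewer cells of a type and less RNA per cell cannot be told apart in such bulk samples.

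Of the 8 genes, 4 were above the floor in BMDM, 6 in pTAMs and 7 in mTAMs. In pTAMs against BMDM, 1 of 6 compared genes was called higher (*Cd33*), where 9.21% of all 11229 compared genes were, and none was called lower against 7.85% of all genes. In mTAMs against BMDM, 3 of 7 were called higher (*Siglecf*, *Cd33* and *Cd22*) against 12.0% of 11305 genes, and none was called lower against 15.1%. In mTAMs against pTAMs the same 3 genes of 7 were called higher, against 5.59% of 11141 genes, and none lower, against 2.71%. The median log2 difference of the compared members was 0.17, 0.79 and 0.57 in these comparisons, and that of all compared genes was -0.07, -0.14 and -0.08. Setting background values to the floor gave members' medians of 0.08, 0.65 and 0.57. Each array entered 2 of the 3 comparisons, which are therefore not independent of each other. For mTAMs against BMDM, 44.3% of all calls were in the higher direction, or 55.1% after cyclic loess normalization, which moved the median of all genes from -0.14 to -0.02. The called members kept their calls there.

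**Figure D1:**
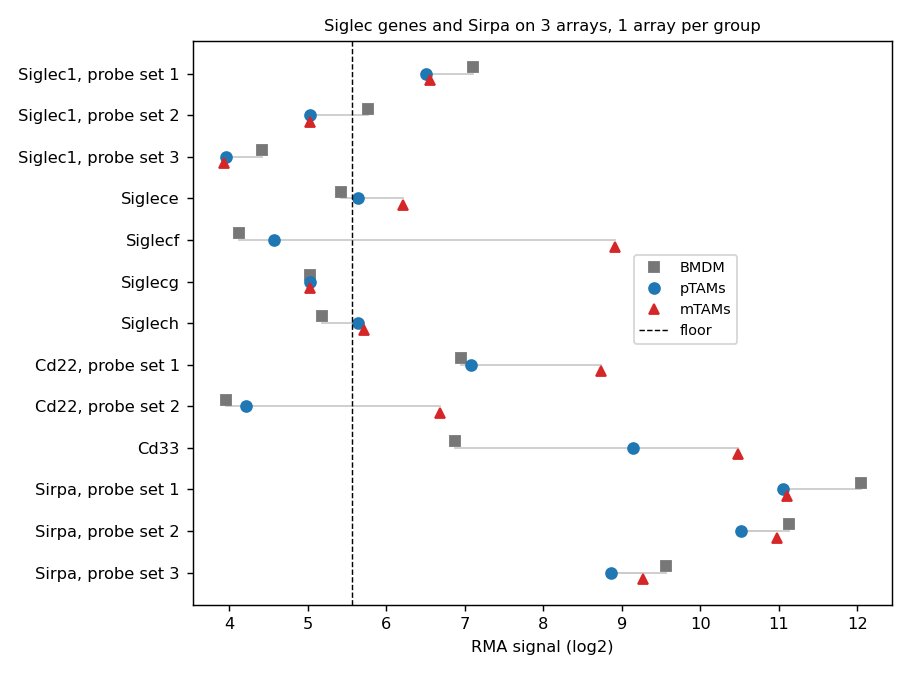
RMA signal (horizontal axis, log2) of each of 13 probe sets (vertical axis) on the BMDM (square), pTAM (circle) and mTAM (triangle) arrays, 1 symbol per array. The dashed line is the floor (5.56). *Siglecf* lies below the floor in BMDM and pTAMs and at 8.91 in mTAMs, *Cd33* is ordered BMDM, pTAMs, mTAMs, and all *Sirpa* probe sets are highest in BMDM.

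**Figure D2:**
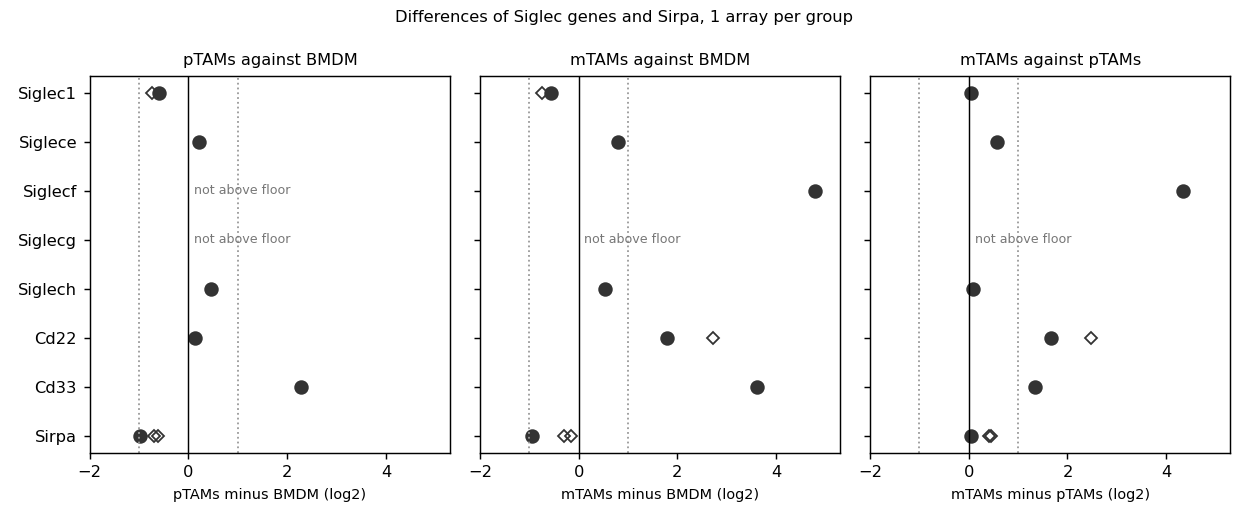
Log2 difference (horizontal axis) of each gene (vertical axis) in the 3 comparisons, for the probe set with the highest mean (filled circle) and for other probe sets above the floor (open diamond). Dotted lines mark 2-fold, and the points of *Siglecf*, the open diamonds of *Siglec1* and *Cd22* and, against BMDM, *Siglece* and *Siglech* are measured differences in which a value lies below the floor. *Siglecf*, *Cd22* and *Cd33* lie beyond the upper line in both comparisons of mTAMs, and *Sirpa* lies just inside the lower line against BMDM.

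*Siglecf*, whose product is known from alveolar macrophages and eosinophils and carries an ITIM, was the member above the floor on 1 array alone. Its single probe set was 4.13 in BMDM, 4.57 in pTAMs and 8.91 in mTAMs. It was thus at least 10.2-fold, or 3.35 log2 units, higher in mTAMs than in either other group. Both lower values lie in the background, so the order of BMDM and pTAMs and the size of the difference beyond this bound cannot be read from the array.

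Markers of alveolar macrophages and of eosinophils were read beside it, and those of other cell types were not. All 9 alveolar macrophage markers read, of 11 listed, were above the floor in mTAMs, against 5 in pTAMs and 3 in BMDM. Their summed log2 level was 81.25, 60.62 and 48.82 in that order. Of these, 8 were called higher in mTAMs than in pTAMs, with *Chil3*, a chitinase-like gene, at 13.50 against 11.20, *Plet1* at 11.15 against 7.85 and *Atp6v0d2* at 10.64 against 6.16. The other probe sets of *Plet1* gave log2 differences from 0.24 to 3.43. *Marco* and *Fabp1* were below the floor in pTAMs, and their calls had bounds of only 1.68-fold and 1.72-fold. Another probe set of *Fabp1* gave a measured log2 difference of 3.90. *Car4* was 9.76 against 7.07, and *Pparg*, a transcription factor gene of alveolar macrophages, 7.75 against 5.55, but *Pparg* was as high in BMDM (8.01). *Itgax* was not called between the TAM groups (9.22 in mTAMs and 9.56 in pTAMs). In pTAMs against BMDM, 4 of 6 compared markers were already called higher and 2 lower. Among those higher were *Chil3*, *Car4* and *Plet1*, at least 49.9-fold, 2.85-fold and 4.89-fold. Of 5 eosinophil markers read, of 6 listed, only *Prg2* (8.30) and *Alox15* (9.46) were above the floor in mTAMs. In pTAMs *Prg2* was 3.66, below the floor, whereas *Alox15* was 8.74 and not called between the TAM groups. The eosinophil peroxidase gene *Epx* (4.25), the interleukin-5 receptor gene *Il5ra* (2.97) and *Ccr3* (4.86) lay below it on all arrays. The eosinophil list summed to 20.85 log2 units in BMDM, 22.33 in pTAMs and 29.84 in mTAMs, with 0, 1 and 2 genes above the floor. The part of either cell type in the *Siglecf* level was not tested.

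Of 11023 other genes, those with the nearest centered log2 profile to *Siglecf* over the 3 arrays were *Slco4c1* (3.14, 3.66 and 8.41 in BMDM, pTAMs and mTAMs), *Mcpt8* (4.66, 4.89 and 8.90) and *Bmx* (4.61, 5.68 and 9.77), at distances of 0.37, 0.39 and 0.45. These distances rest in part on background values, since *Siglecf*, *Slco4c1* and *Mcpt8* were below the floor in BMDM and pTAMs and *Bmx* in BMDM. *Mcpt8* encodes a protease known from basophils, *Bmx* a tyrosine kinase and *Slco4c1* an organic anion transporter.

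*Cd33*, which gives the CD33-related branch its name, was 6.87 in BMDM, 9.14 in pTAMs and 10.48 in mTAMs. It was above the floor on each array and was called in each comparison, at 4.82-fold higher in pTAMs than in BMDM, 12.2-fold higher in mTAMs than in BMDM and 2.53-fold higher in mTAMs than in pTAMs. Of all compared genes, 4.72%, 2.36% and 4.45% differed by as much in these comparisons. *Cd33* was read from 1 probe set. The spread between probe sets of one gene, the only technical error available, had an SD of 0.42, 0.52 and 0.28 log2 units in the same order, and it leaves out the mouse, the sort and the array. A call needs 1 log2 unit, more than each of these SDs. The called differences of *Cd33* (2.27, 3.61 and 1.34) therefore exceed them by construction, which adds no support.

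Neutrophil markers had the same order of groups as *Cd33*. Each of the 10 read, of 12 listed, was lowest in BMDM and highest in mTAMs, and the summed log2 level was 65.99 in BMDM, 103.22 in pTAMs and 123.02 in mTAMs. All 10 were called higher in pTAMs and in mTAMs than in BMDM, and 8 in mTAMs than in pTAMs. *S100a9* was 7.73, 13.75 and 14.30, *S100a8* was 8.76, 13.47 and 14.20, *Mmp8* was 9.14, 10.44 and 13.09, and *Ngp* was 7.46, 10.53 and 12.71. Of 4 monocyte markers read, of 6 listed, all 4 were called higher in pTAMs than in BMDM and 3 in mTAMs, but none was higher in mTAMs than in pTAMs and 2 were lower. *Plac8* was 12.76 in both TAM groups and 7.04 in BMDM, and *Ccr2* was 12.27 in pTAMs, 11.34 in mTAMs and 10.83 in BMDM, and its other probe sets gave log2 0.63 to 1.37 in mTAMs against BMDM. The part of neutrophils or monocytes in the *Cd33* level was not tested. Of the 11023 other genes, 43 lay within 0.5 log2 units of the *Cd33* profile, the nearest being *Plk3*, *Per1* and *Tnfaip6* at distances of 0.04, 0.07 and 0.07, although *Tnfaip6* was below the floor in BMDM (3.57).

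*Siglecf* and *Cd33*, both called higher in mTAMs than in pTAMs, lie in 1 cluster of related genes. The cluster also holds *Siglece*, which was not called, and *Siglecg*, which was below the floor on all arrays. In the RefSeq gene order of GRCm38.p6, *Siglecf* and *Siglecg* are adjacent coding genes on chromosome 7, 9 coding genes lie between *Siglecg* and *Cd33*, and 4 between *Cd33* and *Siglece*. RefSeq promoter windows of GRCm38.p6 were found for 6 of the 8 members, not for *Siglec1* and *Sirpa*. Over the 250 bases before the start, *Siglecf* and *Cd33* shared a run of 16 bases on the same strand, whereas every other pair of these 6 genes, with 1 window each, shared at most 10 on either strand. *Cd22*, also called higher in mTAMs than in pTAMs, shared at most 9 with *Siglecf* and 8 with *Cd33*. A part of the 16-base run in expression was not tested. The run stood 27 to 12 bases before the start of *Siglecf* and 157 to 142 bases before that of *Cd33*, and was held by 2 of 32851 windows in the table, which are these. Because the pair was picked for its long run, the absence of that run elsewhere adds no support. Both stretches are printed to show it, 5′ to 3′ on the strand of the gene with the shared run in capitals. They lie at chr7:43351274-43351340 (plus strand) and chr7:43533273-43533368 (minus strand).
Siglecf: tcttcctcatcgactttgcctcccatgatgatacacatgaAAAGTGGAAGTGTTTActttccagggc
Cd33: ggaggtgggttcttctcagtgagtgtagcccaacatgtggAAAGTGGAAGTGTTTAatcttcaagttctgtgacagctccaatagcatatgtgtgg

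Cores bound by transcription factors of blood cells were counted on both strands of the same windows. The PU.1 core GAGGAA, present in 23.3% of all windows, occurred 1 time each for *Siglecf* and *Cd33*, 3 times for *Siglece* and in 1 of the 2 windows of *Siglecg*. It was not found for *Cd22* and *Siglech*. The RUNX core TGTGGT, in 14.0% of all windows, occurred 1 time each for *Cd33* and *Siglech*, and the GATA core GATAA, in 22.6%, in none of them. A match describes the letters of the window and does not show binding.

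*Cd22*, an inhibitory Siglec best known as a B cell coreceptor, was about equal in BMDM (6.95) and pTAMs (7.08) and higher in mTAMs (8.74). It was 3.46-fold higher in mTAMs than in BMDM and 3.16-fold higher than in pTAMs. Its second probe set, at 3.96, 4.21 and 6.69, was above the floor in mTAMs alone, where it was at least 1.13 log2 units above either other group. Both probe sets thus placed mTAMs highest and beyond 2-fold.

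Most markers of B cells lay below the floor. Of 9 read, of 10 listed, 2 were above the floor, *Pax5* at 5.97 on all arrays and *Ighm* at 8.49 in BMDM, 8.99 in pTAMs and 9.81 in mTAMs. A value equal on all arrays, as for *Pax5*, was found for 21.4% of probe sets, so it need not show expression. *Ighm* was the only one called, 2.50-fold higher in mTAMs than in BMDM, and its other probe sets gave log2 differences from 0.09 to 1.20. *Cd79a* was 4.57 on all arrays, *Cd79b* 5.03 to 5.08 and *Ms4a1*, which encodes CD20, 3.81 to 4.66, all below the floor. The summed log2 level of the list was 45.16, 45.73 and 47.31 in BMDM, pTAMs and mTAMs. The part of B cells in the *Cd22* level was not tested. The profile of *Cd22* was a common one, with 174 of 11023 genes within 0.5 log2 units, led by *Pnpla2*, *Asxl1* and *Snrk* at 0.02, 0.03 and 0.04.

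**Figure D3:**
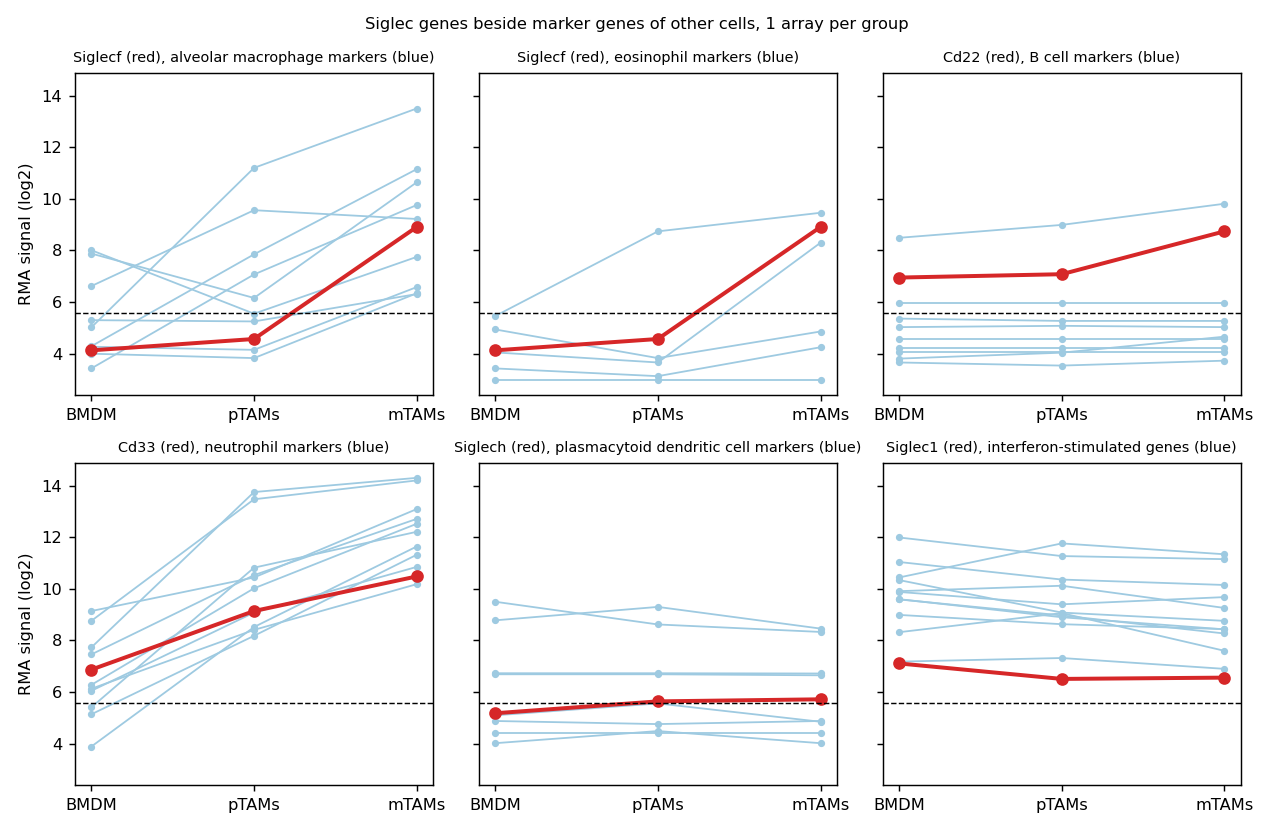
RMA signal (vertical axis, log2) on the BMDM, pTAM and mTAM arrays of 1 Siglec gene (red) and of 1 list of marker genes (blue) in each panel, 1 line per gene (dashed line, floor at 5.56). Heights are not comparable between genes. *Siglecf* turns upward in mTAMs with *Prg2* and some alveolar macrophage markers, while *Chil3*, *Car4* and *Plet1* already rise in pTAMs. The neutrophil markers are ordered like *Cd33*. Of the B cell markers, 7 of 9 lie below the floor, and *Ighm* is ordered like *Cd22*.

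The other CD33-related genes were at or near background. *Siglece*, an ITIM receptor of neutrophils, monocytes and macrophages, was 5.42 in BMDM, 5.64 in pTAMs and 6.21 in mTAMs, within 2-fold in each comparison. It was below the floor in BMDM and 0.08 log2 units above it in pTAMs, so the order of BMDM and pTAMs cannot be read. The log2 difference of mTAMs was 0.57 from pTAMs and at least 0.65 from BMDM. *Siglecg*, known from B cells and as a receptor for CD24, was 5.03 on all arrays, below the floor, and was not compared. *Siglech*, which pairs with DAP12 and marks plasmacytoid dendritic cells and microglia, was 5.18, 5.64 and 5.72, close to the floor on each array. Of 8 plasmacytoid dendritic cell markers read, of 10 listed, none was called higher in either TAM group, and *Bst2*, at 9.50, 8.62 and 8.33, was called lower in mTAMs than in BMDM. *Klk1*, at 6.72 to 6.73, did not differ on its brightest probe set, but 2 others were 2.30 and 2.44 log2 units higher in pTAMs than in BMDM, and mTAMs minus pTAMs was -1.63 and -1.54. *Ccr9* (4.02 to 4.49) and *Spib* (4.42) lay below the floor. Their summed log2 level was 50.12 in BMDM, 50.57 in pTAMs and 48.33 in mTAMs. *Siglece*, *Siglecg* and *Siglech* had a single probe set each.

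*Siglec1*, which encodes sialoadhesin (CD169) of tissue macrophages, was highest in BMDM and was called in no comparison. Its brightest probe set was 7.11 in BMDM, 6.51 in pTAMs and 6.56 in mTAMs. The second was 5.77, 5.03 and 5.03, and the third, below the floor throughout, 4.42, 3.96 and 3.94. The brightest gave log2 differences of -0.60 in pTAMs and -0.55 in mTAMs from BMDM, within 2-fold, and 0.05 between the TAM groups. The second was above the floor in BMDM alone, by 0.21 log2 units. The gene is known to respond to interferon, and a list of interferon-stimulated genes was read beside it. Of 11 read, of 12 listed, 1 was called higher in pTAMs than in BMDM (*Rsad2*, 11.76 against 10.44) and 1 lower (*Usp18*, 9.08 against 10.34). In mTAMs 3 were called lower and none higher, although 2 other probe sets of *Rsad2* gave log2 1.11 and 1.16. Their summed log2 level was 107.28 in BMDM, 104.87 in pTAMs and 99.98 in mTAMs. Other genes of CD169-bearing tissue macrophages were called in both directions. Of the 8 read, 4 were called higher in each TAM group than in BMDM, among them *Vcam1* (4.92 in BMDM, 9.53 in pTAMs and 9.40 in mTAMs), while 2 were lower in pTAMs and 1 in mTAMs, with *Cd5l* at 11.60, 4.87 and 8.11. *Mrc1* was 11.38, 11.96 and 11.45, and *Slc40a1*, the iron exporter gene, 9.91, 8.45 and 11.64, with -0.66 in place of -1.46 on its second probe set in pTAMs. *Timd4*, also called higher in each TAM group, was below the floor in BMDM (4.93). Its bound was only 1.31-fold in pTAMs and 2.01-fold in mTAMs. The summed log2 level of the list was 58.21, 63.19 and 68.07. The part of interferon or of these cells in the *Siglec1* level was not tested.

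*Sirpa* had high signals on each array. Its brightest probe set was 12.04 in BMDM, 11.05 in pTAMs and 11.10 in mTAMs, the second 11.13, 10.52 and 10.97, and the third 9.56, 8.86 and 9.27. All were highest in BMDM and lowest in pTAMs. The brightest gave 1.99-fold less in pTAMs and 1.92-fold less in mTAMs than in BMDM, just short of the 2-fold line. Its log2 difference of -0.99 in pTAMs became -1.06 after median-centering and -1.02 after a second quantile normalization, which would call it lower, and that of -0.94 in mTAMs became -1.01 after median-centering. The other probe sets gave smaller differences, from -0.70 to -0.61 in pTAMs and from -0.29 to -0.16 in mTAMs. Between mTAMs and pTAMs the 3 probe sets differed by 0.05, 0.45 and 0.41. Conventional dendritic cells also bear SIRPα, and of 7 of their markers read, of 8 listed, 2 were called higher in pTAMs than in BMDM (*Batf3*, 7.49 against 6.43, and *Cd209a*, 6.64 against 5.13) and none in mTAMs. *Flt3* (5.69 to 5.72) was just above the floor and *Xcr1* (3.90 to 3.99) below it, and the summed log2 level was 37.51 in BMDM, 40.41 in pTAMs and 39.33 in mTAMs. Their part in the *Sirpa* level was not tested.

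Other genes of both families were few on the array. *Sirpb1a*, which encodes an activating SIRP that pairs with DAP12, was 7.22 in BMDM, 9.89 in pTAMs and 11.14 in mTAMs, that is 6.36-fold and 15.1-fold higher than in BMDM and 2.38-fold higher in mTAMs than in pTAMs. BMDM thus had its lowest value, where they had the highest of *Sirpa*. The signal of *Sirpb1a* is uncertain because near-identical *Sirpb1* genes could share it. *Mag*, the Siglec of myelin, was 5.65, 5.94 and 6.18. These were 2 of 5 genes listed, and the other 3 were not analysed here.

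Of 9 ligand genes, *Cd47*, which encodes the ligand of SIRPα, was high on each array and within 2-fold (11.58, 11.81 and 12.14), and its other probe sets gave log2 differences from 0.13 to 0.52. *Cd24a*, which encodes the CD24 ligand of Siglec-G, was 9.87, 11.29 and 12.63. It was called higher in each comparison, 2.68-fold in pTAMs and 6.77-fold in mTAMs against BMDM and 2.53-fold in mTAMs against pTAMs. *Thbs1*, which encodes the CD47 ligand thrombospondin, was 5.51, 12.01 and 10.57, that is at least 87.4-fold (pTAMs) and at least 32.2-fold (mTAMs) higher than in BMDM, and 2.71-fold lower in mTAMs than in pTAMs. *Ptprc*, the gene of CD45, which CD22 can bind, was 11.87, 12.37 and 12.97 and was called in mTAMs against BMDM (2.14-fold). Its second probe set passed 2-fold in each comparison, with log2 differences of 1.25, 2.26 and 1.01. In all, 2 of 6 compared ligand genes were called higher in pTAMs against BMDM and 3 of 8 in mTAMs against BMDM. In mTAMs against pTAMs 1 of 8 was higher and 1 lower. Over all compared genes the shares called higher were 9.21%, 12.0% and 5.59% in this order. The shares called lower were 7.85%, 15.1% and 2.71%.

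Of 10 genes of adaptors, kinases and phosphatases read, of 12 listed, the phosphatases and the adaptor DAP12 were within 2-fold. *Ptpn6* (SHP-1) was 11.23 in BMDM, 11.36 in pTAMs and 11.73 in mTAMs, and *Ptpn11* (SHP-2) 9.43, 9.21 and 8.83. *Tyrobp*, the gene of DAP12, was 13.46, 13.37 and 13.68. The Src family kinase gene *Fgr* was 6.60, 9.46 and 10.93, 7.26-fold and 20.1-fold higher in pTAMs and mTAMs than in BMDM. *Hcst*, which encodes the adaptor DAP10, was 7.74, 8.34 and 9.70, and the kinase gene *Syk* 8.74, 9.61 and 10.56, and both were called higher in mTAMs against BMDM (3.89-fold and 3.53-fold). In all, 1 of 10 was called higher in pTAMs against BMDM, 3 in mTAMs against BMDM and 2 in mTAMs against pTAMs (*Fgr*, 2.77-fold, and *Hcst*, 2.57-fold), and none was called lower. The brightest probe set of *Syk* gave a log2 difference of 0.95 between mTAMs and pTAMs, short of a call, and its 3 others gave 1.21 to 1.58. The median log2 difference of the list was 0.14, 0.53 and 0.52. Beside these counts, 9.21%, 12.0% and 5.59% of all compared genes were called higher, so the count in pTAMs against BMDM was near the general share.

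The sugar that these lectins bind is made by a short pathway, of which 3 genes were called lower and 2 higher in a TAM group against BMDM. *Nanp*, a phosphatase gene of sialic acid synthesis, was 8.93 in BMDM, 7.90 in pTAMs and 7.11 in mTAMs (2.04-fold and 3.53-fold lower than BMDM). *Nans*, which encodes the synthase, was 9.97, 9.09 and 8.63 (2.53-fold lower in mTAMs). *Cmas*, whose product activates sialic acid for transfer, was 10.83, 9.81 and 10.06 (2.03-fold lower in pTAMs), and *Gne*, the gene of the first enzyme, 7.34, 6.67 and 6.41, within 2-fold. Called higher were *Npl* and *Cmah*. *Npl*, which encodes a lyase that breaks sialic acid down, was 6.86, 8.67 and 8.05 (3.51-fold and 2.28-fold higher). *Cmah* encodes the hydroxylase that makes the glycolyl form of sialic acid, which mouse CD22 prefers. It was 5.52, 5.82 and 8.91, in mTAMs at least 10.2 times the BMDM level and 8.51-fold higher than in pTAMs, although 3 other probe sets of it, read in the same comparisons, differed by log2 0.25 to 3.84 and by 0.38 to 3.25. Over the 7 genes of this list, 1 was called higher and 2 lower in pTAMs against BMDM. In mTAMs 2 were higher and 2 lower against BMDM, and 1 was higher against pTAMs. The medians were -0.67, -0.77 and -0.46. Among all compared genes, 9.21%, 12.0% and 5.59% were called higher and 7.85%, 15.1% and 2.71% lower.

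Among 17 sialyltransferase genes, 12 were above the floor, among them *St6galnac1* at an equal value of 6.36 on all arrays. The calls went both ways. *St3gal5*, which encodes the synthase of the ganglioside GM3, was 11.27 in BMDM, 7.86 in pTAMs and 8.21 in mTAMs (10.6-fold and 8.34-fold lower). *St3gal4* was 7.40, 8.07 and 9.89, and *St3gal6* was 6.13, 6.93 and 9.27. Both were called higher in mTAMs, 5.62-fold and 8.82-fold against BMDM and 3.53-fold and 5.06-fold against pTAMs, but other probe sets of *St3gal6* gave log2 differences from -0.01 to 1.79 against BMDM and from 0.00 to 2.02 against pTAMs. *St6gal1*, whose product makes the linkage that CD22 reads, was highest in pTAMs (10.40, against 8.92 in BMDM and 9.11 in mTAMs), 2.79-fold above BMDM, and its second probe set gave a log2 difference of 0.59 in place of 1.48. Between mTAMs and pTAMs these were -0.42 and -1.29. *St3gal1* (6.03, 7.12 and 7.16) was called higher and *St3gal2* (7.39, 6.25 and 6.08) lower in both TAM groups against BMDM, but their other probe sets stayed within 2-fold, at 0.43 and 0.99 for *St3gal1* and from -0.96 to -0.55 for *St3gal2*. *St8sia4* (11.04, 10.69 and 11.25) was not called, although its second probe set gave 1.12 in pTAMs and 1.91 in mTAMs. In all, 2 of 12 were higher and 2 lower in pTAMs against BMDM. In mTAMs 3 were higher and 2 lower against BMDM, and 2 higher and 1 lower against pTAMs. The medians were -0.07, -0.03 and 0.01. All compared genes gave 9.21%, 12.0% and 5.59% higher and 7.85%, 15.1% and 2.71% lower. Of the sialidases, which remove sialic acid, *Neu1* was 9.20, 9.04 and 9.91 and was not called, with a second probe set above the floor at a log2 difference of 2.29 in mTAMs against BMDM and 2.02 against pTAMs. *Neu2* and *Neu3* were below the floor, and *Neu4* was not analysed here.

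**Figure D4:**
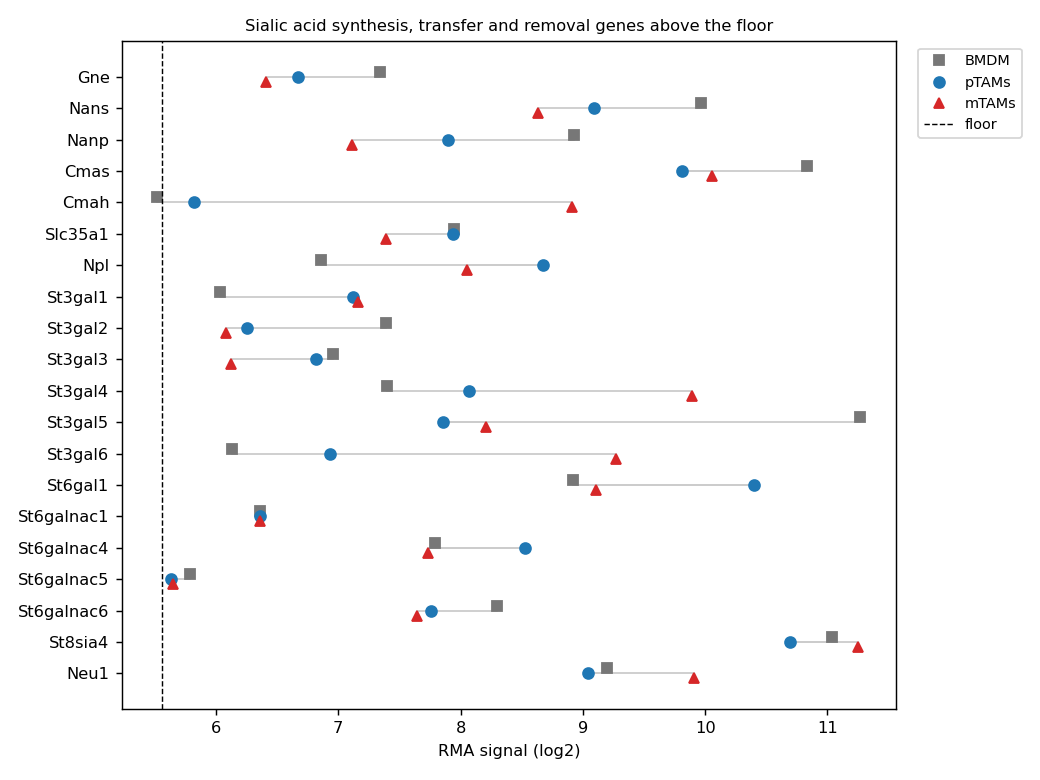
RMA signal (horizontal axis, log2) of 20 genes of sialic acid synthesis, transfer and removal that were above the floor on at least 1 array (vertical axis), on the BMDM (square), pTAM (circle) and mTAM (triangle) arrays (dashed line, floor at 5.56). *Cmah*, *St3gal4* and *St3gal6* stand out to the right in mTAMs, and *St3gal5* in BMDM.

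Other ITIM receptor genes of myeloid cells were read for comparison. Of 9 read, of 11 listed, 4 were called higher and 2 lower in pTAMs against BMDM, 5 higher and none lower in mTAMs against BMDM, and 4 higher and 1 lower in mTAMs against pTAMs. The median log2 difference was 0.77, 1.61 and 0.38. The general shares were 9.21%, 12.0% and 5.59% called higher and 7.85%, 15.1% and 2.71% called lower. *Fcgr2b*, the gene of the inhibitory Fc receptor, was 9.20, 13.41 and 12.52, *Cd300lf* 7.73, 11.53 and 12.71, and *Pilra*, which binds sialylated proteins, 6.59, 10.10 and 10.48. *Pirb* was 9.83, 10.27 and 11.44, and *Pecam1* was 3.92, 7.61 and 5.96. *Pecam1* was below the floor in BMDM, so it was at least 4.14-fold higher in pTAMs but only at least 1.32-fold in mTAMs. Its call in mTAMs against BMDM thus rests on a background value. *Cd300a* (10.03, 8.63 and 9.99) and *Ceacam1* (9.58, 8.25 and 9.98) were lowest in pTAMs and were called higher in mTAMs than in pTAMs (2.57-fold and 3.32-fold). The second probe set of *Cd300a* gave log2 0.47 in place of 1.36 there and -0.47 in place of -1.40 in pTAMs against BMDM, within 2-fold, and the 6 others of *Ceacam1* gave 0.69 to 1.83 and -1.67 to -0.40. *Fcgr2b* was not called between mTAMs and pTAMs (-0.89), where its 3 other probe sets gave -1.19 to -1.09. *Clec4a2* was not called, with 1.47 on a second probe set in pTAMs against BMDM.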

How the data were processed

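The deposited values are log2 signals of 45037 probe sets, summarized with RMA by the authors and rounded to 2 decimals. The sources used here name no RMA version. Probe sets with a single symbol in the platform annotation (34945) were used, 932 with several symbols and 9160 without were not, and where a gene (18193 in all) had several, the one with the highest mean over the arrays stood for it. All 8 gene IDs were found in RefSeq with unchanged symbols. The array table names no genome build, and coordinates belong to the RefSeq promoter table, of which the 50 bases after the start were left out. A comparison took in the genes that exceeded the floor on either of its arrays. Differences given for further probe sets of list genes are as measured, with at least 1 of the pair of values above the floor. Summed log2 levels of a list take in its values below the floor, so a change in a sum need not be shared by its genes. RMA gave 21.4% of probe sets the same value on all arrays. The number of arrays limits the precision, and with 1 array per group there is no p-value or SD across samples. The members, the 7 pathway and 10 marker lists and the sequence motifs were chosen with earlier results of these data known. Named are all members, list genes called in a comparison, up to 4 markers with high levels per list and markers near background, and for members spanning at least 1 log2 unit the 3 genes with the nearest centered profile. Markers beyond these and list genes without a call were named after their values were seen. The calling step was tested on simulated arrays. Planted differences were larger than 2-fold, in genes with a mean more than 1 log2 unit above the floor. Smaller differences were not planted. Alternatives were median-centering, quantile normalization, cyclic loess, averaging a gene's probe sets, leaving out probe sets shared by name, no floor, a floor 1 unit higher, values raised to the floor and a 3-fold threshold. A floor at the 90th percentile (5.23) was added after seeing the data. Python 3.11.15, numpy 2.4.6, pandas 2.3.3, matplotlib 3.10.9, R 4.3.3 and limma 3.58.1 were used.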

Additional observations from a re-analysis of the deposited data

How the results depend on the processing

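*Siglecf*, *Cd22* and *Cd33* in mTAMs, and *Cd33* in pTAMs, kept their calls under all 10 alternatives, except that *Cd33* at 2.53-fold was not called in mTAMs against pTAMs with the 3-fold threshold, which left 2. Median-centering called *Sirpa* lower, so that 2 members in place of 1 were called in pTAMs against BMDM, 1 of them lower, and 1 member was lower in mTAMs against BMDM. Quantile normalization likewise gave 2 in pTAMs against BMDM, 1 of them lower. Each member's log2 difference kept its sign in every alternative that gave one. With values raised to the floor *Siglecf* differed by 3.35 in place of 4.78 from BMDM and of 4.34 from pTAMs, and *Cd22* by 2.07 in mTAMs against pTAMs with the mean of its probe sets. With a 3-fold threshold the counts over all genes fell from 1034 higher and 881 lower to 633 and 375 in pTAMs against BMDM, from 1354 and 1705 to 853 and 574 in mTAMs against BMDM, and from 623 and 302 to 287 and 57 in mTAMs against pTAMs. No paired analysis was possible because each group had 1 array. Values near the floor, such as those of *Siglece* and *Siglech*, limit what can be read from small differences.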
